A study of Mus musculus with 2 samples.

Results

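Pericytes and vascular smooth muscle cells, together called mural cells, were examined in single-cell RNA-seq data from the hippocampus of aged C57BL/6 mice. The study compared mice on a control diet with mice whose diet held 0.05% tomatidine, a steroidal alkaloid. Treatment began at 21 months of age and lasted 3 months, and each of the 2 libraries was made from the pooled hippocampi of 4 mice, from a cohort that held both sexes. The cells came from flash-frozen tissue, were fixed, and were counted with a probe-based kit that tags each captured molecule with a unique molecular identifier (UMI). With 1 pooled library per diet, differences between mice and between library preparations cannot be told apart from the diet, no test was made, and every interval below covers counting error only. The control library held 15912 cells with 279525565 UMIs, and the tomatidine library held 15185 cells with 259059908 UMIs.

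Members were chosen by measured counts. A cell was kept if it had 500 or more UMIs, at least 5 UMIs summed over Pdgfrb, Rgs5, Kcnj8, Abcc9, Vtn, Myh11, Acta2 and Tagln, and at least 10 such UMIs per 10000 of its own. This sum also had to exceed the sums for endothelial cells (Cldn5, Flt1, Pecam1, Cdh5), for fibroblasts (Col1a1, Col1a2, Slc6a13) and for the other lineages (Mog, Mag, Aqp4, Csf1r, Slc17a7). Of 31097 deposited cells, 546 met the rule, 213 of them from control and 333 from tomatidine mice. A cell counted as a pericyte if Kcnj8, Abcc9 and Vtn together exceeded Myh11, Acta2 and Tagln, and as a muscle cell in the opposite case. This gave 183 and 285 cells on the pericyte side and 19 and 40 muscle cells in the control and tomatidine libraries, while 11 and 8 cells had equal sums. The members nearest the threshold had 11.8 and 10.1 mural UMIs per 10000 in the control and tomatidine libraries, and the nearest cells outside it had 9.12 and 6.27.

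Pericytes are embedded in the basement membrane of brain capillaries and share it with the endothelium, which recruits them through platelet-derived growth factor acting on the receptor Pdgfrb. They are known for maintaining the blood-brain barrier and, together with smooth muscle cells, for setting vessel diameter. Smooth muscle cells form rings around arterioles and contract through an actin and myosin apparatus that pericytes of the capillary bed hold at much lower levels.

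The label was checked first against the rule's own genes, whose levels are a description and not a finding. On the pericyte side, Vtn, which encodes the matrix glycoprotein vitronectin, was present in nearly every cell, but Rgs5, a regulator of G-protein signalling, and Kcnj8 and Abcc9, the pore and regulatory subunits of an ATP-sensitive potassium channel, were not. No UMI of Rgs5, Kcnj8 or Abcc9 was found in 73 of 183 control cells and in 140 of 285 tomatidine cells. The pericyte side was therefore divided, after these values had been seen, at a 10% share of Rgs5, Kcnj8 and Abcc9 in the sum of these 3 genes and Vtn. The cells at or above it, 105 control and 124 tomatidine, are called Rgs5/Abcc9 cells below, and the other 78 and 161 are called Vtn-led cells. Few cells lay near this limit, with 11 and 16 cells between 5% and 15%.

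**Figure D1:**
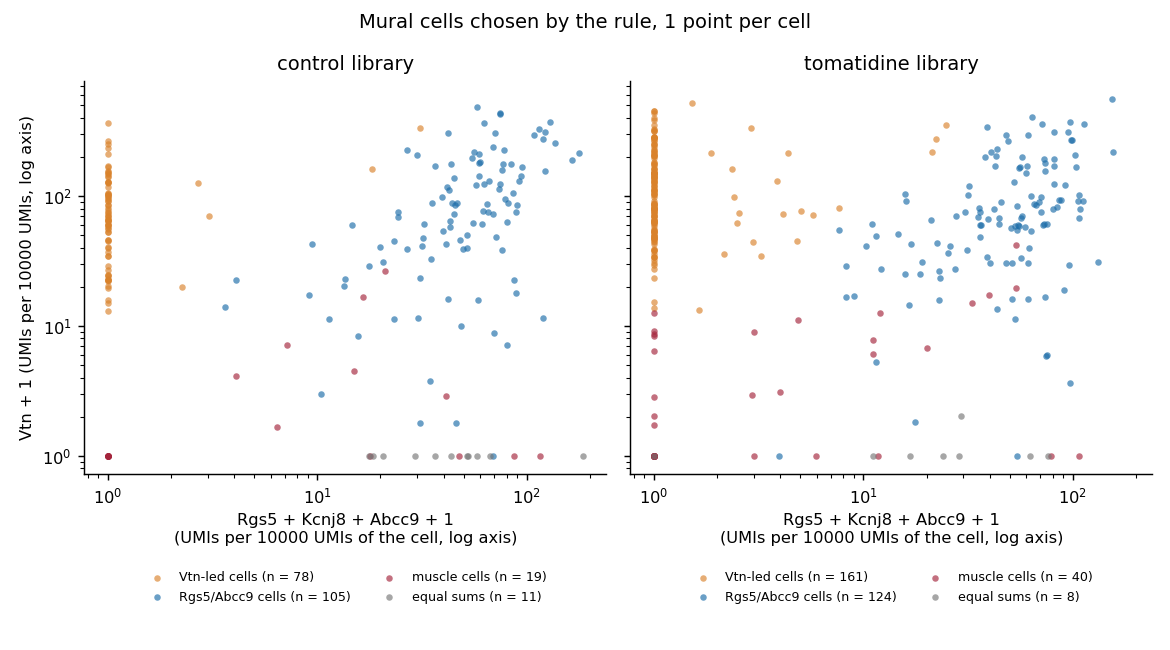
Vtn against the sum of Rgs5, Kcnj8 and Abcc9 in each mural cell, both in UMIs per 10000 of the cell plus 1 on log axes, with 1 point per cell and 1 panel per library. Most Vtn-led cells stand on the left edge, where the 3 other genes are at 0, and the Rgs5/Abcc9 cells form a cloud at the upper right.

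In the Rgs5/Abcc9 cells the pericyte genes of the rule were found in both libraries. Summed over the cells of a library and scaled to the usual counts per 1e+06 UMIs (CPM), Rgs5 stood at 3249 with control and 3783 with tomatidine, and a UMI of it was found in 99.0% and 98.4% of the cells. Abcc9 stood at 717 and 767 CPM and Kcnj8 at 145 and 183 CPM. In oligodendrocytes gated on Mog and Mag, which should lack these genes, Rgs5 had a UMI in 5.26% and 4.89% of cells and Abcc9 in 0.651% and 0.435%, at median depths of 5870 and 5534 UMIs per cell against 10787 and 7898.5 in the Rgs5/Abcc9 cells. Thinned to 1000 UMIs per cell, Rgs5 was still expected in 92.2% and 90.8% of Rgs5/Abcc9 cells and in 0.991% and 1.03% of oligodendrocytes. Pdgfrb stood at 748 and 828 CPM in the Rgs5/Abcc9 cells, at 327 and 354 CPM in the Vtn-led cells and at 280 CPM in both libraries in a fibroblast gate built the same way on Col1a1, Col1a2 and Slc6a13.

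The Vtn-led cells held little Rgs5, Abcc9 or Kcnj8, which follows from the division on these genes. Rgs5 was at 16.8 and 39.2 CPM in them, Abcc9 at 12.6 and 11.8 CPM, and Kcnj8 at 2.10 and 1.31 CPM with a single UMI in each library. Vtn was at 7814 and 13056 CPM, above its 6175 and 6819 CPM in the Rgs5/Abcc9 cells. Their leading genes were those of fibroblasts. Igf2, an insulin-like growth factor, stood at 7218 and 8981 CPM, against 5351 and 5466 CPM in the fibroblast gate and 680 and 472 CPM in the Rgs5/Abcc9 cells. Dcn, the collagen-binding proteoglycan decorin, stood at 1548 and 1618 CPM, against 25.6 and 54.7 CPM in the Rgs5/Abcc9 cells. Cell by cell, 8 fibroblast genes that the rule did not use summed to more UMIs than 4 pericyte genes (Higd1b, Ndufa4l2, Atp13a5, Anpep) in 76 of 78 control and 147 of 161 tomatidine Vtn-led cells. The 4 pericyte genes had a UMI in 38 of 78 and 80 of 161 Vtn-led cells. They summed to more UMIs than the fibroblast genes in 98 of 105 and 107 of 124 Rgs5/Abcc9 cells. The label therefore went against the data in the Vtn-led cells, which are described here by their leading gene, and the Rgs5/Abcc9 cells are described apart from them below.

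**Figure D2:**
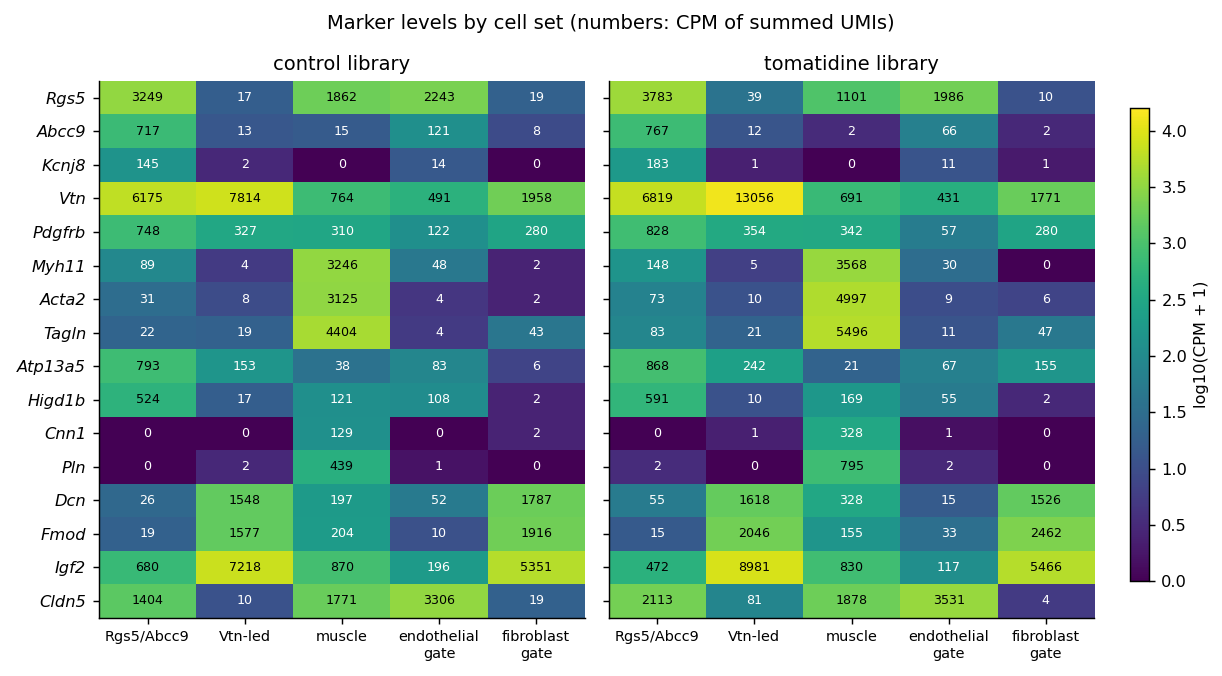
CPM of marker genes (rows) in the Rgs5/Abcc9, Vtn-led and muscle cells and in the endothelial and fibroblast gates (columns), for each library, with colour showing log10(CPM + 1). In the Vtn-led column Rgs5, Abcc9, Dcn and Fmod stand near the fibroblast gate and far from the Rgs5/Abcc9 column.

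Most of the muscle cells held the contractile genes that named them. Tagln, the actin-binding protein transgelin, stood at 4404 CPM with control and 5496 CPM with tomatidine, Acta2, smooth muscle actin, at 3125 and 4997 CPM, and Myh11, the smooth muscle myosin heavy chain, at 3246 and 3568 CPM. In the Rgs5/Abcc9 cells Tagln was at 21.9 and 83.3 CPM and Acta2 at 31.0 and 73.0 CPM. The rule's sums for the sides do not count Rgs5, and the label went against the data in some cells. A UMI of Rgs5, Kcnj8 or Abcc9 was found in 11 of 19 control and 17 of 40 tomatidine muscle cells, and in 4 cells of each library these genes together exceeded Myh11, Acta2 and Tagln. The 4 control cells had 5 to 34 UMIs of Rgs5, Kcnj8 and Abcc9 and only 1 to 2 UMIs of the muscle genes. They gave 8.67% of the UMIs of control muscle cells, and the 4 tomatidine cells gave 3.83%. Rgs5 stood at 1862 and 1101 CPM in muscle cells, and at 1425 and 945 CPM without these cells, so comparisons with muscle cells are also given without them. Kcnj8 had no UMI in 132150 control and 432477 tomatidine UMIs of muscle cells, which allows up to 22.7 and 6.94 CPM. The cells with equal sums were defined by Rgs5 almost alone, which had a UMI in 11 of 11 control and 7 of 8 tomatidine cells, while Vtn, Myh11, Acta2, Tagln, Kcnj8 and Abcc9 together gave 2 and 4 UMIs.

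Acta2 lies on chromosome 19 (34241090 to 34255590, minus strand, mm10, GENCODE M21) and Rgs5 on chromosome 1 (169655501 to 169695813, plus strand). Promoters are shown because contractile genes of smooth muscle are textbook targets of serum response factor, which binds the CArG box. The CArG box was searched as 2 C, 6 bases that are A or T with at most 1 C or G among them, and 2 G, a pattern that reads the same way on both strands. The windows are from RefSeq (GRCm38.p6), from 250 bases before to 50 after the start site, written 5′ to 3′ with matches in capitals. Acta2, Myl9 (a myosin light chain) and Rgs5 were chosen as a gene of each side and the myosin gene with a match that holds no C or G in its middle, at chr19:34255324-34255623 (minus), chr2:156775214-156775513 (plus) and chr1:169655251-169655550 (plus).
Acta2: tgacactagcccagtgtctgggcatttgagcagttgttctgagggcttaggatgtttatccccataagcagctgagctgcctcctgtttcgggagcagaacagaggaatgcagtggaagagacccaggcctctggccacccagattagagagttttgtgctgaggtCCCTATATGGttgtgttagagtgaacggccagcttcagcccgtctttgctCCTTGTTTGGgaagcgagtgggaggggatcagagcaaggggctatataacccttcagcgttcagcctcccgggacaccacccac
Myl9: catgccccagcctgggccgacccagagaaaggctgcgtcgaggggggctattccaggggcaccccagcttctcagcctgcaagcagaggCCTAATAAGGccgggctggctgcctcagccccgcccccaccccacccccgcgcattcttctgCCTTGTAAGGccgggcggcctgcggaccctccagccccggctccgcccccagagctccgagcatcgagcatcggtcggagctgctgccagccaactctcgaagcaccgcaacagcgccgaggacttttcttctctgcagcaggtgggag
Rgs5: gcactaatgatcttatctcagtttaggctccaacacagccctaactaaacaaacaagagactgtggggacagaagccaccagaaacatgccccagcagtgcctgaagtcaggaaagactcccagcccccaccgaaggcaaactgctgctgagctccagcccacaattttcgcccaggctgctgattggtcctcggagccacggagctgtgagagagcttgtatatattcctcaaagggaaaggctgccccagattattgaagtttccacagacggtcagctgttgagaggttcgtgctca
The Acta2 window held 2 matches, starting 84 and 34 bases before the RefSeq start site, each with 1 C or G in the middle. The Myl9 window also held 2, at 161 and 99 bases, and the Rgs5 window held none. The GENCODE start of Acta2 on the minus strand, 34255590, lies elsewhere in its window, so the Acta2 distances hold for the RefSeq start site only. Of the 26 other contractile genes listed for this report, 21 were in the table and 4 had a match (Myl9, Pcp4l1, Srf and Vcl), or 19%, beside 3 of 19 other pericyte genes (Ggt1, Gper1 and Tbx18) and 11.3% of all 27025 genes of the table. With no C or G allowed in the middle, 3 of 21 contractile genes (14.3%), 0 of 19 pericyte genes and 1.81% of all genes had a match. A match describes these letters and shows no binding.

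Between muscle and Rgs5/Abcc9 cells, a gene was counted when its CPM differed at least 4-fold in the same direction in both libraries. Of 10427 genes with 50 or more UMIs, 117 (1.12%) were that much higher in muscle cells and 80 (0.767%) in Rgs5/Abcc9 cells. Of the 26 other contractile genes, which are related in function to those of the rule, 15 were higher in muscle and none in Rgs5/Abcc9 cells. Without the muscle cells led by Rgs5, Kcnj8 and Abcc9, 122 genes were higher in muscle, 15 contractile genes among them, and 87 in Rgs5/Abcc9 cells. Pln, phospholamban, which restrains the calcium pump of the sarcoplasmic reticulum, had 58 UMIs (439 CPM) in 19 control muscle cells and none in the Rgs5/Abcc9 cells, and 344 UMIs (795 CPM) against 4 in the tomatidine library. Cnn1, the actin-binding calponin, had 17 UMIs in control and 142 in tomatidine muscle cells and none in Rgs5/Abcc9 cells of either library. With 3 counts per library as the floor, Cnn1 was at least 70.5-fold and 180-fold higher in muscle. Cytl1, a secreted cytokine-like protein, likewise had no UMI in Rgs5/Abcc9 cells and stood at 219 and 273 CPM in muscle. The remaining 9 of the 12 genes at this end were Myom1, Pdlim3, Ptgis, Susd5, Aoc3, Lmod1, Palld, Tpm2 and Fhl5. Tpm2, a tropomyosin, had 2346 and 3105 CPM in muscle cells against 92.5 and 105 CPM.

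At the other end, Atp13a5, a P-type ATPase, had 1303 UMIs (793 CPM) in control and 1428 UMIs (868 CPM) in tomatidine Rgs5/Abcc9 cells, against 5 and 9 UMIs (37.8 and 20.8 CPM) in muscle cells. The amino acid transporter Slc7a5 stood at 927 and 1059 CPM against 90.8 and 69.4, and the monocarboxylate transporter Slc16a1 at 292 and 304 CPM against 22.7 and 34.7. Others at this end were Slc22a8, Slc30a10, Art3, Hic1, Plxdc1, Rgcc, Itm2a and Emcn. Slc7a5, Slc16a1, Slc22a8 and Emcn are also genes of brain endothelium. The 13 endothelial markers summed to 8971 and 10623 CPM in the Rgs5/Abcc9 cells and to 9141 and 7230 CPM in the muscle cells. In the control library the muscle cells thus held slightly more, but 1 control muscle cell gave 41.0% of their sum. The median sum per cell was higher in the Rgs5/Abcc9 cells in both libraries, at 61.38 and 65.08 UMIs per 10000 against 34.93 and 17.03. The part of endothelial RNA in the differences between Rgs5/Abcc9 and muscle cells was not tested. Of 22 other pericyte genes, 21 were measured and 5 were 4-fold higher in Rgs5/Abcc9 cells in both libraries, none lower. With the whole pericyte side in place of the Rgs5/Abcc9 cells, 136 of 11155 genes (1.22%) were higher and 99 (0.887%) lower than in muscle, 17 of the 26 contractile genes among the latter.

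**Figure D3:**
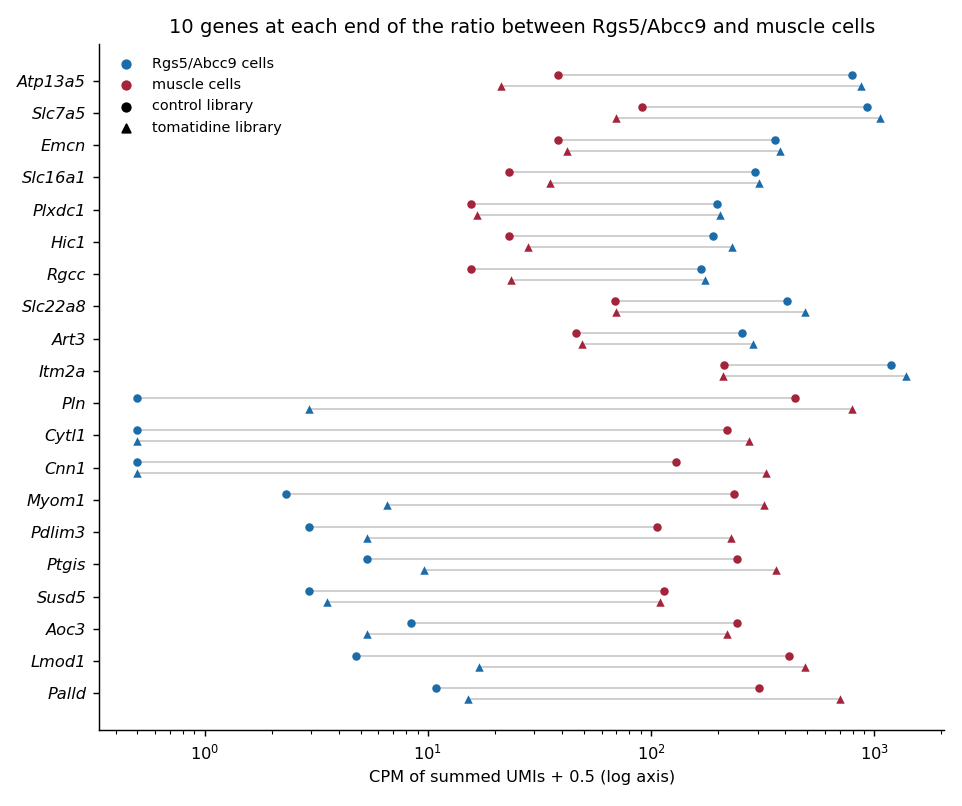
CPM plus 0.5, on a log axis, of 10 genes at each end of the ratio between Rgs5/Abcc9 cells (blue) and muscle cells (red) in the control (circles) and tomatidine (triangles) libraries. The 10 genes at the bottom lie under 20 CPM in Rgs5/Abcc9 cells and over 100 CPM in muscle cells in both libraries.

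Compared with the Rgs5/Abcc9 cells, the Vtn-led cells had 233 of 10914 genes (2.13%) 4-fold higher and 335 (3.07%) 4-fold lower in both libraries. As these cells were divided on their counts, this is a description. Of 18 interstitial matrix genes, 13 were 4-fold higher in the Vtn-led cells, and of 11 fibroblast markers 10 of the 10 measured. Fmod, the proteoglycan fibromodulin, stood at 1577 and 2046 CPM against 19.5 and 14.6. Wnt6, a secreted signal, had 79 and 246 UMIs in the Vtn-led cells and 0 and 2 in the Rgs5/Abcc9 cells. The gap junction gene Gjb2 stood at 1267 and 1994 CPM against 22.5 and 17.6. Of 21 other pericyte genes, 11 were lower and 1 higher in the Vtn-led cells, among the lower Higd1b, at 16.8 and 10.4 CPM against 524 and 591. Against the fibroblast gate, in contrast, 1 gene of 9649 (0.0104%) was 4-fold higher in the Vtn-led cells and 43 (0.446%) were lower. The higher gene was Notch3, the receptor mutated in a hereditary small vessel disease, with 21 and 36 UMIs (44.1 and 47.0 CPM) against 2 and 3 UMIs. Slc47a1, an exporter of organic cations, marked the other end, at 6.29 and 6.53 CPM against 245 and 364.

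Rgs5/Abcc9 cells were next set beside the endothelial gate of 146 control and 236 tomatidine cells. Here 101 of 11435 genes (0.883%) were 4-fold higher in Rgs5/Abcc9 cells in both libraries and 6 (0.0525%) were lower. Of the 21 other pericyte genes measured, 13 were among the higher genes and none among the lower. Cspg4, the NG2 proteoglycan of pericytes, stood at 370 and 357 CPM against 37.1 and 27.6. The folate carrier Slc19a1 stood at 256 and 252 CPM against 24.1 and 17.9, and the estrogen-responsive receptor Gper1 at 279 and 314 CPM against 24.1 and 31.2. Kcne4, a subunit that modulates potassium channels, had 76 and 75 UMIs against 3 and 4. The remaining 4 of the 8 genes at this end were Bmp5, Slc38a11, Nodal and Atp13a5. The 6 lower genes were Lcn2, Col6a6, Cd14, Lyz2, Cytl1 and Csf3r, and none is in the endothelial list. All 13 endothelial markers had UMIs in the Rgs5/Abcc9 cells, summed to 16629 and 16360 CPM in the endothelial gate itself, and none was 4-fold lower in the Rgs5/Abcc9 cells. Rgs5 in turn stood at 2243 and 1986 CPM in the endothelial gate.

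RNA of other cells was present in the members beside the endothelial genes. Hbb-bs, a beta-globin gene of red cells, stood at 3068 CPM in control and 1608 CPM in tomatidine Rgs5/Abcc9 cells, and at 115 and 449 CPM in Vtn-led cells. Ttr, transthyretin, the main secreted product of the choroid plexus, stood at 5099 CPM in control and 45.6 CPM in tomatidine Rgs5/Abcc9 cells. It had a UMI in 95 of 105 and 33 of 124 of them, and a single control cell gave 72.4% of its UMIs over both libraries. The 8 choroid plexus genes summed to 5999.5 and 249 CPM there, with Folr1 at 0 in the tomatidine cells. The 8 astrocyte genes summed to 9510 and 8796 CPM. The 8 oligodendrocyte genes summed to 4034 and 2466 CPM, the 9 neuronal genes to 3367 and 3327 CPM, and the 7 microglial genes to 251 and 239 CPM. The 6 genes of border macrophages summed to 20.7 and 19.5 CPM. The 6 genes of oligodendrocyte precursors summed to 513 and 469 CPM, of which Cspg4, also a pericyte gene, gave 370 and 357 CPM. The 5 ependymal genes summed to 152 and 178 CPM, of which Rarres2 gave 139 and 170 CPM, against 28.9 and 23.5 CPM in the endothelial gate. Both sums thus rested mostly on 1 gene that was higher here than in the endothelial gate, and they are not counted as RNA of other cells. In the muscle cells the endothelial genes summed to 9141 and 7230 CPM, 1 control cell giving 41.0% of theirs, and the fibroblast genes to 1597 and 1337 CPM. In the Vtn-led cells the endothelial genes summed to 348 and 905 CPM, and 1 tomatidine cell gave 57.3% of the latter. Some members may hold more than 1 cell. Cells with over 6000 detected genes numbered 29 of 105 and 33 of 124 and gave 66.3% and 67.0% of the UMIs of Rgs5/Abcc9 cells, so the counts of genes and the list values between diets were also computed without them. Of the 292 cell barcodes found in both libraries, 2 belonged to control members and 6 to tomatidine members, and none was a member in both.

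Mural cells by the rule made up 1.34% of control cells (exact Clopper-Pearson 95% interval 1.17 to 1.53) and 2.19% of tomatidine cells (1.97 to 2.44). These shares were 0.855 points apart (0.563 to 1.15 by Newcombe's method). Most of it lay in the Vtn-led cells, at 0.490% (0.388 to 0.611) and 1.06% (0.904 to 1.24), a difference of 0.570 points (0.377 to 0.771). Rgs5/Abcc9 cells made up 0.660% (0.540 to 0.798) and 0.817% (0.680 to 0.973), and the interval of their difference, 0.157 points, ran from -0.0338 to 0.350 and included 0. Muscle cells made up 0.119% (0.0719 to 0.186) and 0.263% (0.188 to 0.359), a difference of 0.144 points (0.0472 to 0.248). Without the Vtn-led cells, mural cells made up 0.848% and 1.13%, a difference of 0.284 points (0.0643 to 0.508). Within the cells assigned to a side, muscle cells were 9.41% (5.76 to 14.3) and 12.3% (8.94 to 16.4), and the interval of their difference, 2.90 points (-2.85 to 8.10), included 0. Without the Vtn-led cells they were 15.3% (9.48 to 22.9) and 24.4% (18.0 to 31.7), and the interval of that larger difference, 9.07 points (-0.398 to 17.9), also included 0. The endothelial gate, 0.918% and 1.55%, and the fibroblast gate, 0.754% and 1.28%, were also larger in the tomatidine library. Whether the diets or the recovery of vessel and surface tissue in the 2 preparations set these shares cannot be told apart.

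**Figure D4:**
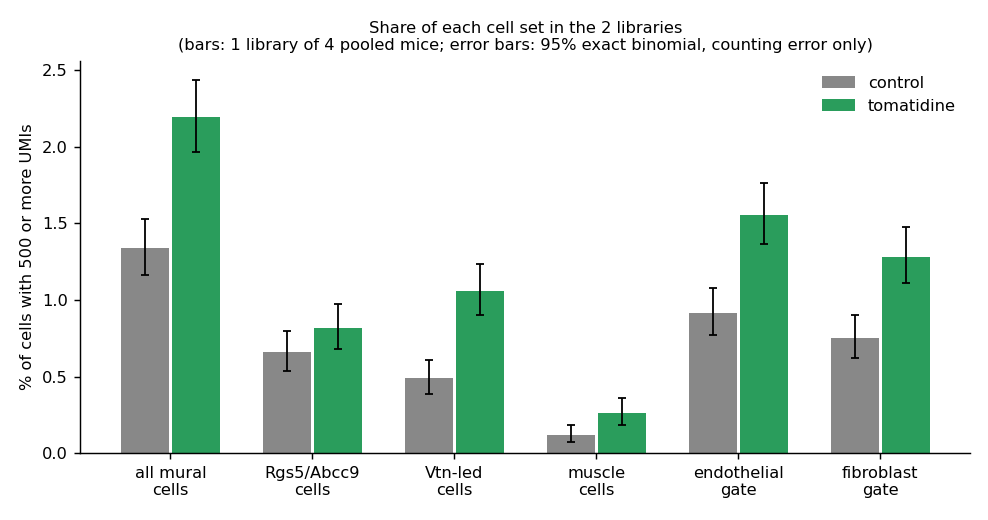
Share of each cell set among cells with 500 or more UMIs in the control (grey) and tomatidine (green) libraries, with 95% exact binomial intervals. The mural, Vtn-led, muscle, endothelial and fibroblast bars of the tomatidine library stand above those of the control library with intervals that do not meet, while the intervals of the Rgs5/Abcc9 bars overlap.

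For the diets, the log2 ratio of CPM in tomatidine over control was taken in each set, over genes with 50 or more UMIs. In the Rgs5/Abcc9 cells 70 of 9989 genes (0.701%) were 2-fold or more higher and 87 (0.871%) 2-fold or more lower. Many genes at both ends were those of other cells, and several came largely from 1 cell. Somatostatin (Sst), its relative Cort and Npy, neuropeptides of interneurons, and the immunoglobulin gene Igkc stood at the upper end, with Grik1, Crhbp, H2-Ab1 and H2-Eb1. For Sst, with 38 and 454 UMIs, 1 cell gave 70.9% of the UMIs, and for Cort 1 cell gave 87.7%. Ttr, Ecrg4, Gh, Car12, Lrg1, Htr2c, Col9a3 and Enpp2 stood at the lower end, and most of these are genes of the choroid plexus or pituitary.

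In the Rgs5/Abcc9 cells, genes that mark pericytes differed little between the diets. Of 21 other pericyte genes measured in the Rgs5/Abcc9 cells, 16 were higher and 5 lower with tomatidine, none past 2-fold, and their median log2 ratio was 0.09, beside -0.00072 for all genes. The median was -0.11 with each cell weighted equally and -0.0051 with the study's own filters on cells applied as well. Ifitm1 had the highest ratio, 0.46, and Rgs4 the lowest, -0.12. Rgs5, which both the rule and the division of the pericyte side used, is given as a description only. Its log2 ratio was 0.22 (0.17 to 0.27), and it was -0.07 without cells of over 6000 genes. Of 24 genes for recruitment by platelet-derived growth factor and Notch, 17 were higher (median 0.12), from Tgfb1i1 at 0.49 to Angpt2 at -0.49. Of 22 basement membrane genes, 15 were higher (median 0.08), from Itga7 at 0.48 to Lama4 at -0.18. Their median was -0.11 without cells of over 6000 genes, -0.05 with each cell weighted equally and -0.02 with the study's filters. Of 18 ion channel and pump genes, 10 were higher (median 0.02), from Atp2b4 at 0.39 to Kcnma1 at -0.31. None of these 3 lists had a member past 2-fold. Summed over their UMIs, the channel and pump genes were at -0.07, opposite in sign to their median, and without cells of over 6000 genes the median itself was -0.16. Of 11 genes of vessel tone, the alpha-1 adrenergic receptor Adra1a was 2-fold higher, with 18 and 52 UMIs (log2 ratio 1.53, 0.73 to 2.39), and the cyclic GMP-dependent kinase Prkg1 2-fold lower, with 53 and 26 UMIs (-1.03, -1.76 to -0.33). In this list 7 were higher, and the median, 0.20, and the summed ratio, -0.03, had opposite signs.

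Contractile genes stood higher with tomatidine in the Rgs5/Abcc9 cells, by small ratios. Of 19 measured, 17 were higher, none past 2-fold, with a median of 0.27. Pcp4l1, a small protein related to Pcp4, had 562 and 881 UMIs (log2 ratio 0.65, 0.49 to 0.80), and Myl9 had 1004 and 1421 UMIs (0.50, 0.38 to 0.62). Csrp1 was lowest at -0.22. Acta2 itself had 51 and 120 UMIs, but in only 5 and 9 cells, and Tagln had 36 and 137 UMIs in 8 and 16 cells. The median of the list was 0.06 without cells of over 6000 genes.

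Genes of the interferon response, which include antigen presentation and antiviral genes, gave the highest median of the lists fixed for stress and immune responses in the Rgs5/Abcc9 cells. Of 34 measured, 32 were higher with tomatidine, 4 of them past 2-fold, and their median log2 ratio was 0.56. Iigp1, an immunity-related GTPase, had 17 and 48 UMIs (1.50, 0.67 to 2.39), its relative Igtp 48 and 106 (1.14, 0.64 to 1.67), the immunoproteasome subunit Psmb8 51 and 109 (1.10, 0.60 to 1.60), and the class I antigen H2-D1 100 and 201 (1.01, 0.65 to 1.37). Ly6e, the member with the most UMIs, had 1339 and 2067 UMIs (0.63, 0.53 to 0.73). The lowest, Oasl2, had 77 UMIs in each library. Without cells of over 6000 genes the direction was lost, with a median of -0.03, while with each cell weighted equally the median was 0.36. This was the only 1 of 13 alternatives that changed its sign. The list summed to 3177 and 4560 CPM in the Rgs5/Abcc9 cells and to 5117 and 5891 CPM in the endothelial gate, where its median ratio was 0.25, and 13 endothelial markers in the Rgs5/Abcc9 cells summed to 8971 and 10623 CPM. The part of endothelial RNA in the interferon values was not tested.

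Senescence genes, the question of the study, showed no common direction in the Rgs5/Abcc9 cells. Cdkn1a, which encodes the cell cycle inhibitor p21, had 149 UMIs (90.6 CPM) in 42 of 105 control cells and 115 UMIs (69.9 CPM) in 41 of 124 tomatidine cells. Its log2 ratio was -0.37 (-0.74 to -0.01), and it was -0.38 without cells of over 6000 genes. Cdkn1a had a UMI in 5.92% and 3.88% of oligodendrocytes, and it stood at 140 and 94.1 CPM in the endothelial gate. In the Vtn-led cells Cdkn1a had 7 and 10 UMIs, and in muscle cells 5 and 38 UMIs, in 2 of 19 and 14 of 40 cells. Without the muscle cells led by Rgs5, Kcnj8 and Abcc9, Cdkn1a had 5 and 35 UMIs there. These are 41.4 and 84.2 CPM, higher with tomatidine, with a log2 ratio of 1.02 whose interval (-0.34 to 2.73) included 0. Cdkn2a, which encodes p16, had 0 and 2 UMIs in the Rgs5/Abcc9 cells, 1 and 2 in the Vtn-led cells and none in the muscle cells, so that no ratio could be formed. Of 15 p53 targets measured in the Rgs5/Abcc9 cells 6 were higher and none past 2-fold (median -0.03), from Ccng1 at 0.26 to Pmaip1 at -0.89. Their summed ratio was -0.095 (-0.18 to -0.01). Over 13 alternatives the median ran from -0.25 to 0.04, with 1 of the other sign. Of 16 genes of the senescence-associated secretory phenotype 10 were higher (median 0.20), with Icam1 and Ccl19 past 2-fold higher and Spp1 past 2-fold lower. Their median was -0.13 without cells of over 6000 genes. Icam1, an adhesion molecule for leukocytes, had 27 and 87 UMIs (1.69, 1.05 to 2.37), and Spp1, osteopontin, 157 and 54 (-1.54, -2.01 to -1.09).

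The remaining lists in the Rgs5/Abcc9 cells stood near the median of all genes or rested on few members. Of 18 targets of ATF4, a factor linked to tomatidine in skeletal muscle, 11 were higher (median 0.08), from Slc7a11 at 1.09 to Phgdh at -0.98. Slc7a11, a cystine transporter, stood at 1710 and 1969 CPM in the Vtn-led cells and at 29.8 and 63.2 CPM here. Of 23 immediate early genes 14 were higher (median 0.11), with Nr4a3 past 2-fold lower at -1.28. Of 15 glucocorticoid targets 6 were higher (median -0.13), from Cdkn1c at 0.46 to Ddit4 at -0.61. Of 13 mitochondrially encoded genes 4 were higher (median -0.05), and of 4 Y-linked genes 3 were (median 0.26). Of 9 interstitial matrix genes 8 were higher (median 0.63), with Col3a1, Eln and Dcn past 2-fold, beside 11 fibroblast markers that summed to 261 and 387 CPM. The matrix median was 0.24 over the 6 genes still measured without cells of over 6000 genes.

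In the Vtn-led cells 96 of 6116 genes (1.57%) were 2-fold higher with tomatidine and 107 (1.75%) lower. Several at the ends were genes of other cells from a single cell: 1 cell gave 90.3% of the UMIs of Lrg1, 89.7% of those of Vwf and 86.6% of those of Cldn5, and 1 control cell gave 82.3% of those of H2-Ab1. Igfbp3, an insulin-like growth factor binding protein, was spread over more cells. It had 6 UMIs in 4 of 78 control cells and 87 UMIs in 21 of 161 tomatidine cells, a log2 ratio of 3.17 (1.99 to 4.66), while in the fibroblast gate it stood at 22.3 and 8.21 CPM. Rbp4, the plasma carrier of retinol, had 56 UMIs in 22 control and 362 UMIs in 72 tomatidine Vtn-led cells. Its log2 ratio there was 2.01 (1.60 to 2.44). In the Rgs5/Abcc9 cells Rbp4 had 6 and 25 UMIs, too few for the filter. Over the whole pericyte side it gave 2.46 (2.07 to 2.87), with 1 cell giving 8.24% of the UMIs. Vtn itself, which the rule used, was at 0.74 (0.69 to 0.80). Of 13 other pericyte genes measured 11 were higher (median 0.37), with a summed ratio of 0.45 (0.37 to 0.53), and Rgs4 was past 2-fold lower at -1.38. Of 21 basement membrane genes Fn1, fibronectin, was past 2-fold, with 62 and 296 UMIs (1.57, 1.17 to 1.99), and 16 were higher (median 0.13). Of 16 interferon genes 11 were higher, with Gbp2 past 2-fold, and their median of 0.22 was -0.09 when the mural sum had to be at least 2 times each other sum. Of 17 secretory phenotype genes 11 were higher (median 0.27), 3 of them past 2-fold, and none was past 2-fold lower. Over 13 alternatives this median ran from 0.07 to 0.37. Of 16 interstitial matrix genes 11 were higher (median 0.11) and none was past 2-fold. Markers of other cells also differed between these 2 sets of Vtn-led cells. The fibroblast markers summed to 7440 and 9332.5 CPM, with 8 of 10 measured higher (median 0.34). This list includes Col1a1, Col1a2 and Slc6a13, whose sum the rule limited in every member. The choroid plexus genes summed to 4963 and 847 CPM, 1 control cell giving 62.6% of theirs, the oligodendrocyte genes to 6343 and 3079 CPM, and the genes of border macrophages to 197 and 43.1 CPM. The astrocyte genes stood nearly level at 13548 and 13580 CPM. The part of this RNA in the values of the lists was not tested.

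In the muscle cells, with 19 control cells, 113 of 3054 genes (3.7%) were 2-fold higher and 46 (1.51%) lower. The tomatidine cells gave 432477 UMIs and the control cells 132150, so genes high with tomatidine passed the filter more easily. No direction is drawn from these counts. Contractile genes stood higher with tomatidine here as well. Of 26 measured, 22 were higher and 2 past 2-fold, with a median of 0.36. The 2 were Cnn1 and Actg2, which passed the filter through their tomatidine UMIs, so no direction is drawn from that count. Cnn1 had 17 and 142 UMIs (log2 ratio 1.35, 0.62 to 2.17), but 1 cell gave 58.8% of the control and 1 cell 59.9% of the tomatidine UMIs, and without both the ratio was 1.21 (0.08 to 2.59). Actg2, the enteric smooth muscle actin, had 1 and 63 UMIs, of which 1 cell gave 84.4%. Pln had a ratio of 0.86 (0.45 to 1.29) and Mustn1 one of 0.87 (0.44 to 1.33), while Nrip2 was lowest at -0.65. Acta2, from the rule, was at 0.68 (0.52 to 0.83). Without cells of over 6000 genes, 2 control and 8 tomatidine cells, the median of the list was -0.0049 and the ratio of Acta2 was -0.03. Without the muscle cells led by Rgs5, Kcnj8 and Abcc9, 19 of 26 were higher with a median of 0.28, and Acta2 was at 0.59 (0.44 to 0.75).

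Many other lists in muscle cells rested on few UMIs and often on single cells. The 13 mitochondrially encoded genes had more, with 1309 and 3516 UMIs, and 11 were lower, at a summed ratio of -0.28 (-0.38 to -0.19). Their median, -0.32, ran from -0.34 to -0.03 over 13 alternatives, so its size depended on the setting. All 4 microglial markers measured were higher, and the summed ratio of their list was 0.56 (0.20 to 0.93). The list had 78 and 376 UMIs, and 1 cell gave 52.6% of the control and 1 cell 33.0% of the tomatidine UMIs. Its median per cell went the other way, at 3.12 and 1.65 UMIs per 10000, so no direction is drawn from it. Of 12 interferon genes 2 were higher, with Isg15 (23 and 35 UMIs, 17 of the control UMIs from 1 cell) among those past 2-fold lower. Their median of -0.22 was 0.04 without the largest cell of each library, 0.39 over the 4 genes still measured without cells of over 6000 genes and 0.02 with the mural sum at least 2 times each other sum. Of 10 secretory phenotype genes 2 were higher (median -0.47), with Igfbp3 and Vcam1 past 2-fold lower and Spp1 higher. For Igfbp3 1 cell gave 75.9% of the control UMIs, for Vcam1 1 cell gave 58.8%, and without the cell richest in each gene in either library the ratios were -0.18 (-1.43 to 1.27) and -0.54 (-1.07 to 0.01). The endothelial markers in the same cells were lower as well, with 9 of 10 lower, a median of -0.29 and a summed ratio of -0.34 (-0.43 to -0.24), beside -0.33 for the interferon and -0.34 for the secretory phenotype genes. Once cells of over 6000 genes were left out, the summed ratios were 0.46 (0.24 to 0.69) for interferon, 0.33 (0.14 to 0.52) for endothelial and -0.34 (-0.52 to -0.16) for secretory phenotype genes. The part of endothelial RNA in these values was not tested. Without the muscle cells led by Rgs5, Kcnj8 and Abcc9 the medians were -0.27 for interferon, -0.34 for secretory phenotype and -0.28 for endothelial genes. Only 6 of 26 ATF4 targets had 50 or more UMIs over both libraries. All 6 were higher (median 0.49), or 5 of 6 without the cells led by Rgs5, Kcnj8 and Abcc9 (median 0.53). Slc7a11 had 10 and 89 UMIs (1.44, 0.50 to 2.55), and Nupr1, a stress-induced chromatin protein, had 5 and 64 (1.97, 0.67 to 3.64). Both passed the filter through their tomatidine UMIs, so the count of higher targets depends on the filter and no direction is drawn from it. Of 15 immediate early genes 5 were higher (median -0.26), from Ccn1 at 1.30 to Fos at -2.94, and all 5 still measured without cells of over 6000 genes were higher (median 0.24). At the ends stood Inmt, Bmp7 and Thbs1, with 1 to 2 control UMIs each and 55, 51 and 84 with tomatidine, and Anapc2, Acadvl, Appl2 and Slc6a13, and at the lower end Ttr, Col3a1, Arpp21, C1ql2, Nptx1 and Gfap. Over both libraries 1 cell gave 66.3% of the UMIs of Thbs1, 54.8% of those of Slc6a13, 59.6% of those of Fos, 58.3% of those of Col3a1 and 53.75% of those of C1ql2. Without the cell richest in each gene in either library, the ratios were -1.11 (-2.72 to 0.63) for Fos, -0.29 (-1.34 to 0.86) for Col3a1 and 0.40 (-1.20 to 2.42) for C1ql2. Ttr (-4.06, -5.21 to -3.07) and Arpp21 (-2.42, -3.46 to -1.43) were still lower.

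**Figure D5:**
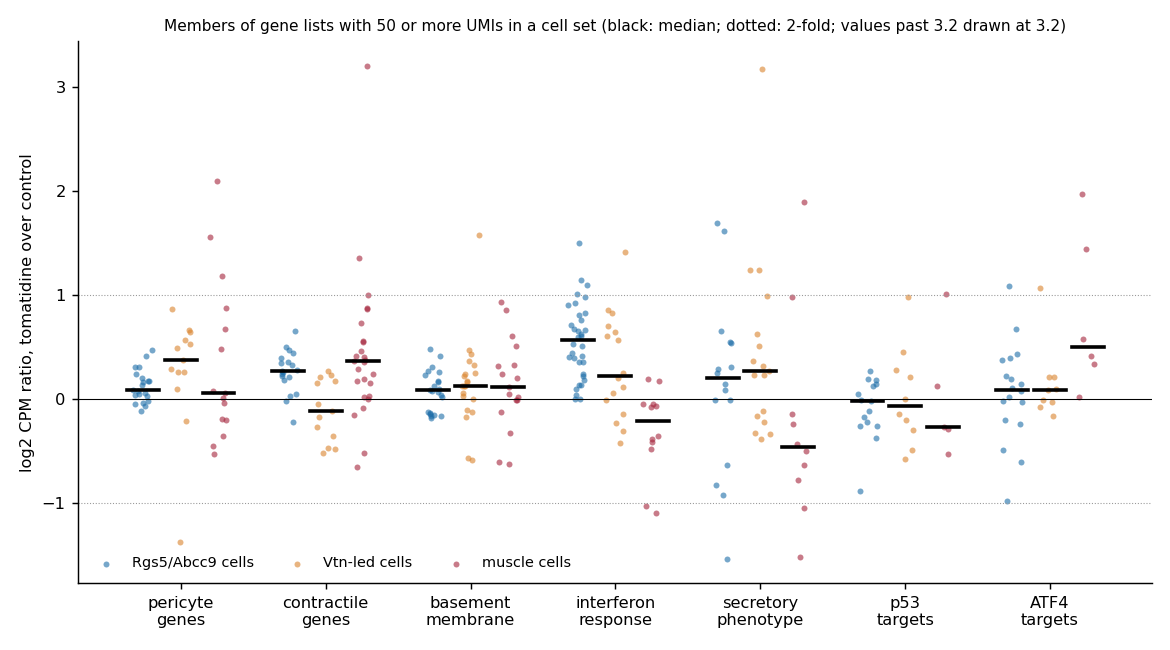
Log2 ratio of CPM, tomatidine over control, of each measured member of 7 gene lists in Rgs5/Abcc9 (blue), Vtn-led (orange) and muscle cells (red), with medians as black bars and 2-fold as dotted lines; 1 value past 3.2, Actg2 in muscle cells, is drawn at 3.2. The interferon median stands at 0.56 in Rgs5/Abcc9 cells and at -0.22 in muscle cells, while p53 targets centre near 0 in the Rgs5/Abcc9 cells.

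Over all members, 108 of 11181 genes (0.966%) were 2-fold higher with tomatidine and 76 (0.68%) lower, and on the pericyte side 105 of 10914 (0.962%) and 87 (0.797%). All 26 contractile genes were then higher, 8 of them past 2-fold, with a median of 0.80. Muscle cells gave 132150 of the 2293168 control and 432477 of the 2897256 tomatidine UMIs of the members. With the CPM of the pericyte side and of muscle cells weighted to the same mix in both libraries, the median of the contractile genes was 0.27. Without cells of over 6000 genes it was 0.06.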

How the data were processed

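Cells of the hippocampus were profiled with a probe-based fixed-RNA kit in 1 control and 1 tomatidine library. The deposited values are raw UMI counts per gene and cell, made by the authors with Cell Ranger 8.0.0 and mm10 per the submitters' processing notes, while the matrix header names cellranger 7.1.0. Each library holds 19059 genes, and 6 repeated symbols were kept apart by identifier. Members and gene lists were chosen with earlier results of these data known, and the division of the pericyte side, the alternatives for it and the removal of single cells and of muscle cells led by Rgs5, Kcnj8 and Abcc9 were chosen after seeing the data.

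UMIs were summed per library and cell set and divided by the set's total (CPM). Counts were not scaled to the probes per gene, which were not used here, so that the order of 2 genes or lists within a cell set is one of UMIs and not of transcript levels. Shares have exact Clopper-Pearson intervals and differences Newcombe intervals. CPM ratios have exact conditional binomial intervals. All are at 95% and cover counting error only. No test was run, as each diet has 1 library and cells are not replicates. Genes with 50 or more UMIs over both libraries entered a ratio, and a gene counted as past a threshold at 2-fold between diets, or at 4-fold in both libraries between cell sets. Genes at 0 were set against 3 counts per library and set.

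Genes named were those of the rule, Cdkn1a and Cdkn2a, the highest, lowest and 2-fold members of each list, the 8 genes at each end between diets, and the 12 at each end between pericytes and muscle cells. The lists were other pericyte and contractile genes, vessel tone, ion channels, recruitment, basement membrane, interstitial matrix, p53 targets, secretory phenotype, interferon, immediate early, glucocorticoid, ATF4, mitochondrial and Y-linked genes, and markers of other cell types. Marker lists of other cell types include genes whose sums the rule limited, such as Cldn5, Col1a1, Mog, Aqp4, Csf1r and Slc17a7. Further genes were named after their values were seen (Igf2, Fmod, Gjb2, Wnt6, Higd1b, Notch3, Slc47a1, Myl9, Ly6e, Hbb-bs, Rbp4, Pln, Mustn1 and the genes at the ends against the endothelial gate). A few genes that this rule would name are not reported here. No doublet caller was run. Instead, results were repeated without cells of over 6000 genes. Analyses used Python 3.11.15, numpy 2.4.6, scipy 1.17.1 and pandas 2.3.3, with TMM factors from edgeR 4.0.16 as an alternative. The ratio script was tested on simulated data.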

Additional observations from a re-analysis of the deposited data

Results flagged for a closer look

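For 6 gene lists, the summed log2 ratio of tomatidine over control had opposite signs in Rgs5/Abcc9 cells and muscle cells, with intervals on either side of 0. The difference between the cell sets was not tested, since each diet has 1 library. For interferon genes the summed ratio was 0.52 (0.47 to 0.57) in Rgs5/Abcc9 cells and -0.33 (-0.45 to -0.21) in muscle cells. For genes of the secretory phenotype it was 0.11 (0.07 to 0.16) and -0.34 (-0.46 to -0.23). For interstitial matrix genes it was 0.39 (0.27 to 0.51) and -0.23 (-0.36 to -0.10), while the median of the 8 matrix genes measured in muscle cells was 0.21, of the other sign. For immediate early genes it was 0.08 (0.03 to 0.13) and -0.24 (-0.37 to -0.11). Markers of other cells were among the 6. The endothelial markers were at 0.24 (0.21 to 0.28) and -0.34 (-0.43 to -0.24), and the fibroblast markers at 0.57 (0.39 to 0.75) and -0.26 (-0.49 to -0.02), the latter with a median of 0.21 in muscle cells. All 6 lists were higher in Rgs5/Abcc9 cells and lower in muscle cells, and the part of endothelial and fibroblast RNA in the other 4 was not tested. Without the muscle cells led by Rgs5, Kcnj8 and Abcc9, the summed ratios of these 6 lists in muscle cells lay between -0.40 for interferon genes and -0.31 for interstitial matrix genes. In the control muscle cells 1 of 19 cells gave 25.4% of all UMIs, and the muscle values depended on single cells. Of the fibroblast markers 1 cell gave 57.3% of the control and 1 cell 40.8% of the tomatidine UMIs. Without the cell richest in a list in each library, the summed ratio in muscle cells was 0.29 (-0.05 to 0.64) for fibroblast markers, 0.06 (-0.10 to 0.22) for interstitial matrix, 0.10 (-0.06 to 0.26) for immediate early and -0.07 (-0.19 to 0.06) for endothelial genes. It was still below 0 for interferon (-0.21, -0.35 to -0.06) and secretory phenotype genes (-0.15, -0.29 to -0.01). Without cells of over 6000 genes the interferon ratio in muscle cells was 0.46 (0.24 to 0.69), and the secretory phenotype ratio in Rgs5/Abcc9 cells was -0.07 (-0.15 to 0.0040), so that none of the 6 lists had intervals on opposite sides of 0 under all of these alternatives.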

How the results depend on the processing

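No paired analysis was possible because each diet has 1 library. Of 197 alternative values of shares and counts, 146 kept their direction and stayed within the interval of a share or 1.5 times a count, 51 moved past that, and none changed sign. Without the Vtn-led cells the difference in the share of mural cells was 0.284 points and that of muscle cells among assigned cells 9.07 points (-0.398 to 17.9). Without cells of over 6000 genes the Vtn-led difference was 0.793 points. Counts of genes 2-fold higher and lower moved with the filter on low counts. For genes with 20 or more UMIs they were 226 and 159 in all mural cells, 215 and 185 on the pericyte side, 182 and 214 in Rgs5/Abcc9 cells, 303 and 369 in Vtn-led cells and 577 and 249 in muscle cells. For 100 or more UMIs they were 55 (higher) in all mural cells, 57 and 50 on the pericyte side, 31 and 35 in Rgs5/Abcc9, 28 and 35 in Vtn-led and 22 and 11 in muscle cells. With no filter they were 539 and 502, 521 and 547, 450 and 646, 766 and 985, and 1190 and 1173 in the same order. With the mean of CPM over cells they were 226 and 208, 189 and 216, 221 and 252, 162 and 168, and 343 and 225. Without cells of over 6000 genes 31 genes were higher in Rgs5/Abcc9 cells and 38 and 21 higher and lower in muscle cells. With a mural sum at least 2 times each other sum, 122 genes were lower in all mural cells and 166 in Vtn-led cells. Genes 4-fold higher on the pericyte side than in muscle numbered 247 with 20 or more UMIs, 86 with 100 or more and 80 for Rgs5/Abcc9 cells alone, and those higher in muscle 61 without cells of over 6000 genes. Of the named genes, Sst turned to -0.18 in all mural cells and -0.23 on the pericyte side without cells of over 6000 genes. Gfap in muscle cells turned to 1.20 and Cd74 in Vtn-led cells to 0.25 with the 2-times margin. By the mean of CPM over cells H2-Eb1 turned to -0.43 and Acta2 to -0.14 in Rgs5/Abcc9 cells. The causes were not tested. TMM factors lay between 0.977 and 1.02. Depth was lowest in the cells with equal sums, with 40489 and 54230 UMIs, and then in the muscle cells, with 132150 control UMIs.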

Other observations

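In the fibroblast gate Atp13a5, a gene of pericytes in these data, had 4 UMIs in 2 of 120 control cells and 151 UMIs in 32 of 195 tomatidine cells (log2 ratio 4.60, 3.22 to 6.50), and 1 cell gave 12.9% of the UMIs. Of 13 pericyte genes measured there, Atp13a5 included, 6 were higher and 7 lower (median -0.24), with 1 past 2-fold higher and 2 past 2-fold lower, beside 0.931% higher and 1.21% lower of all 7517 genes measured there, and Cspg4 lowest at -1.59. Summed over their UMIs they were at 0.43, opposite in sign to their median. Rbp4 had 204 and 420 UMIs in the same gate, or 325 and 431 CPM, against 117 and 473 CPM in the Vtn-led cells.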
